A study of Rattus norvegicus with 6 samples.

Results

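Neurogranin (Nrgn), lysosomal associated membrane protein family member 5 (Lamp5), the potassium channel subunit Kcnv1 and R-spondin 2 (Rspo2) were followed through 6 rat brain libraries, at the gene level and for every isoform. The 4 loci were taken by their gene symbol from the 24744 loci that were quantified, and they hold 24 isoforms. They were chosen by their measured gene and isoform levels, since earlier results of these same libraries had shown how those levels varied, so their gene and isoform values are given as a description, without a test. The libraries were made from polyA RNA of the whole brain of naive male rats, 3 of the inbred strain BN-Lx/CubPrin (BNLx) and 3 of the inbred strain SHR/OlaIpcvPrin (SHR), the spontaneously hypertensive rat. Each library came from 1 rat, no treatment is named for either strain, and the labels used here give no age. The transcriptome was assembled from both strains with StringTie, which builds transcripts from aligned reads, and 3′ ends were added to it by aptardi, a program that predicts polyadenylation sites from DNA sequence and read coverage.

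All 4 genes are known from forebrain neurons. Nrgn encodes a postsynaptic protein that binds calmodulin when calcium is low and is released from it on phosphorylation by protein kinase C. Lamp5 is the brain member of the LAMP family of membrane glycoproteins, found in vesicles of neurons. Kcnv1 encodes Kv8.1, an electrically silent subunit that forms no channel by itself and changes the currents of the Kv2 channels it joins. Rspo2 is secreted, binds the receptors LGR4, LGR5 and LGR6, and strengthens Wnt signalling by removing ubiquitin ligases that clear Wnt receptors from the cell surface.

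Total expected counts ranged from 11747048 to 41333078 per library. In each strain 1 library stood apart, replicate 3 in BNLx and replicate 1 in SHR. Over genes, the chi-square per degree of freedom of the other pair was 12 in BNLx and 10.5 in SHR, whereas pairs with BNLx replicate 3 gave 84.2 and 107 and pairs with SHR replicate 1 gave 143 and 154. Of 10 symbols listed as general marks of brain, 5 had a locus, and all 5 were present in every library. Snap25, a synaptic vesicle fusion protein of neurons, was lowest at 874 CPM in SHR replicate 1 and highest at 2668 CPM in BNLx replicate 2. Here CPM are expected counts per 1000000 counts of the library, with library sizes scaled by TMM in edgeR.

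The sequences just upstream of the annotated start of Nrgn and Lamp5 are shown because promoter entries were found for these 2 of the 4 genes only. A link between these sequences and the levels was not tested. They are RefSeq sequences of the rat build GRCr8, 250 bases each, 5′ to 3′ on the strand of the gene. The Nrgn window is chr8:45452418-45452667 on the minus strand and the Lamp5 window is chr3:143824947-143825196 on the plus strand. Capitals mark the single match in each window to the searched motifs, read on both strands. These were the TATA box (TATAAA), the CCAAT box, the GC box (GGGCGG), the E-boxes CACGTG and, as a second form, CAGCTG, and the CRE core written as TGACG.
Nrgn: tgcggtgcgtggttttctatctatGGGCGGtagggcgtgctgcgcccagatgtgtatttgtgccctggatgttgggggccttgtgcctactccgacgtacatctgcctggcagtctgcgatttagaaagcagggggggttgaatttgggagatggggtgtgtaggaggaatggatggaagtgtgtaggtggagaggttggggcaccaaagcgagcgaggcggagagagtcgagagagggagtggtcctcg
Lamp5: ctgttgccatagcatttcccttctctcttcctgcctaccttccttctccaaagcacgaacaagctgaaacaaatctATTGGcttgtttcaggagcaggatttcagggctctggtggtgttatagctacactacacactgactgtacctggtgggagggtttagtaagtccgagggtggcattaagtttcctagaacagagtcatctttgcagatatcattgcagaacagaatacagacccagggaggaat
The Nrgn match is a GGGCGG 226 bases before the start, a motif that 30.5% of 33469 rat promoters of this length hold on either strand. The Lamp5 match is a CCAAT box on the opposite strand, printed as ATTGG, 174 bases before the start, and 34% of the promoters hold this motif. The TATA box was held by 12.9% of the promoters, the E-boxes by 5.59% (CACGTG) and 12% (CAGCTG), and the CRE core by 18.2%. The windows had 58% (Nrgn) and 46.4% (Lamp5) G and C, against a median of 51.2% over all promoters. The 2 windows had no motif in common among those searched.

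Nrgn was the most abundant of the 4 genes per length in all 6 libraries. Its locus (STRG.30607, ENSRNOG00000010688) lies on the minus strand of chromosome 8 from 40015049 to 40023193 in rn6, and its single isoform has 4 exons and 1373 bases. Its level was 1708, 1801 and 99.3 CPM in BNLx replicates 1, 2 and 3, and 358, 1131 and 1184 CPM in SHR replicates 1, 2 and 3. The lowest library was a BNLx library and the second lowest an SHR library, so the strains overlapped. BNLx replicate 3 held 5.66% of the mean of the other BNLx libraries, which is 17.7-fold lower, and SHR replicate 1 held 30.9% of the mean of the other SHR libraries, which is 3.23-fold lower. The value of BNLx replicate 3 rests on 1290 counts and that of SHR replicate 1 on 15419 counts.

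Lamp5 was about as low as Nrgn in BNLx replicate 3 but much less so in SHR replicate 1. Its locus (STRG.14477, ENSRNOG00000005457) lies on the plus strand of chromosome 3 from 129018592 to 129031521, with a single isoform of 6 exons and 2052 bases. Its level was 266, 260 and 20.2 CPM in BNLx replicates 1, 2 and 3, and 119, 183 and 164 CPM in SHR replicates 1, 2 and 3. BNLx replicate 3 was again the lowest library, at 7.69% of the other BNLx libraries, a 13-fold difference. SHR replicate 1 kept 68.7% of the other SHR libraries, a 1.46-fold difference. Among 14467 genes, 2283 had a lower ratio in SHR replicate 1 than Lamp5, whereas 295 had a lower ratio than Nrgn.

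Kcnv1 had the lowest ratio of the 4 genes in BNLx replicate 3. Its locus (STRG.28301, ENSRNOG00000004117) lies on the minus strand of chromosome 7 from 84000826 to 84024864. Its level was 119, 119 and 2.77 CPM in BNLx replicates 1, 2 and 3, and 32.1, 101 and 85.4 CPM in SHR replicates 1, 2 and 3. BNLx replicate 3 held 2.32% of the other BNLx libraries, which is 43.1-fold lower and rests on 36.11 expected counts. SHR replicate 1 held 34.5% of the other SHR libraries, which is 2.9-fold lower. Only 74 of 14462 genes had a lower ratio in BNLx replicate 3.

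Rspo2 was the least abundant of the 4 genes and had the lowest ratio of them in SHR replicate 1. Its locus (STRG.28251, ENSRNOG00000037687) lies on the same strand of chromosome 7 as Kcnv1, from 81923994 to 82059789, and 1941036 bases separate both loci. Its level was 19.6, 17.9 and 1.39 CPM in BNLx replicates 1, 2 and 3, and 2.69, 13.2 and 17.2 CPM in SHR replicates 1, 2 and 3. BNLx replicate 3 held 7.39% of the other BNLx libraries, which is 13.5-fold lower and rests on 18 counts. SHR replicate 1 held 17.7% of the other SHR libraries, which is 5.65-fold lower and rests on 116 counts. In SHR replicate 1, 81 genes had a lower ratio, against 125 in BNLx replicate 3. In bulk RNA, fewer cells of a type and less RNA per cell cannot be told apart for any of these genes.

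**Figure D1:**
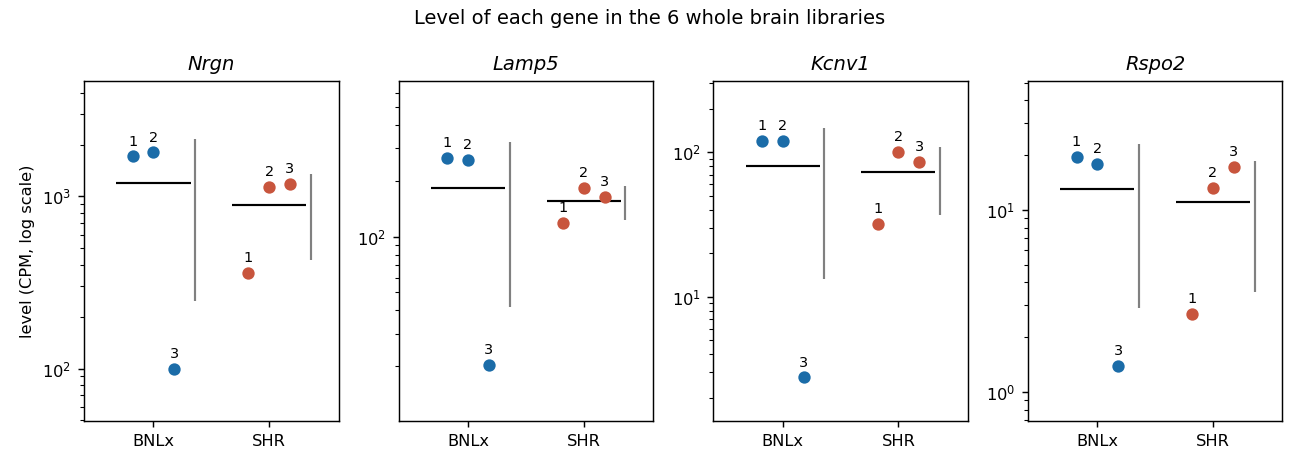
Level of Nrgn, Lamp5, Kcnv1 and Rspo2 in CPM on log axes, with 1 point per library and the replicate number above it. Black lines are strain means and grey bars reach 1 SD either side (n = 3 per strain). BNLx replicate 3 is the lowest point in each panel, from 1.39 CPM for Rspo2 to 99.3 CPM for Nrgn, and SHR replicate 1 is the lowest SHR point in each panel.

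Across all tested genes the same ratios centred near 100%. The median gene in BNLx replicate 3 was at 99.7% of the other BNLx libraries, the lowest 1% of genes lay below 8.72% and the lowest 5% below 38.6%. All 4 genes lay below that 1% point, which describes how they stand and is not a test, since their levels chose them. In SHR replicate 1 the median was 103%, the lowest 1% of genes lay below 22.6% and the lowest 5% below 43.9%. Rspo2 lay below the 1% point, Nrgn and Kcnv1 lay between the points, and Lamp5 lay above the 5% point. A ratio of 50% or less was found for 1147 genes (7.93%) in BNLx replicate 3, for 984 genes (6.8%) in SHR replicate 1 and for 376 genes (2.6%) in both. Nrgn, Kcnv1 and Rspo2 were among the last group and Lamp5 was not.

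**Figure D2:**
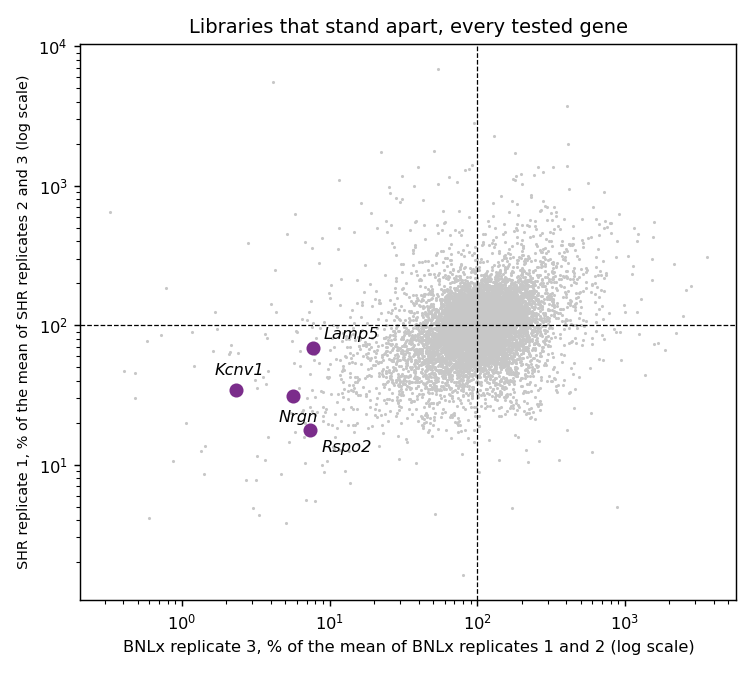
Level of each tested gene in BNLx replicate 3 as a percent of the mean of BNLx replicates 1 and 2 (x axis) and in SHR replicate 1 as a percent of the mean of SHR replicates 2 and 3 (y axis), both on log axes. Grey points are single genes, purple points the 4 named genes, and dashed lines mark 100%. The 4 genes lie between 2.32% and 7.69% on the x axis and spread from 17.7% to 68.7% on the y axis. In all, 70 genes without a ratio above 0 on both axes are not drawn.

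Levels were compared between the genes in TPM, the abundance that RSEM gives per transcript length. The order was Nrgn, Lamp5, Kcnv1, Rspo2 from high to low in each of the 6 libraries. Mean TPM in BNLx and SHR were 1980 ± 1565 and 1617 ± 872 for Nrgn, and 193 ± 146 and 179 ± 45 for Lamp5 (SD, n = 3 each). They were 58.4 ± 48.9 and 57.1 ± 27 for Kcnv1, and 8.91 ± 6.87 and 8.39 ± 5.85 for Rspo2. In BNLx the ranges of 1 SD around the mean overlapped between Lamp5 and Kcnv1 and between Kcnv1 and Rspo2, and in SHR no neighbours overlapped.

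The distances between the genes changed in the libraries that stand apart. In TPM, Nrgn exceeded Lamp5 9.99-, 10.8- and 7.66-fold in BNLx replicates 1, 2 and 3 and 4.69-, 9.67- and 11.3-fold in SHR replicates 1, 2 and 3. SHR replicate 1 had the smallest of these ratios, the library in which Lamp5 was least reduced. Lamp5 exceeded Kcnv1 3.17-, 3.23- and 11.9-fold in the BNLx libraries and 4.84-, 2.78- and 2.87-fold in the SHR libraries, so that ratio was largest in BNLx replicate 3. Kcnv1 exceeded Rspo2 6.77-, 6.68- and 2.01-fold in the BNLx libraries and 14-, 7.92- and 4.95-fold in the SHR libraries, smallest in BNLx replicate 3 and largest in SHR replicate 1. The 4 libraries other than BNLx replicate 3 and SHR replicate 1 kept all 3 ratios within narrower ranges, from 9.67 to 11.3, from 2.78 to 3.23 and from 4.95 to 7.92.

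The study compared SHR with BNLx, with BNLx as the reference, and in that comparison the 4 genes differed by less than the spread between replicates. Nrgn had means of 1203 ± 957 CPM (BNLx) and 891 ± 463 CPM (SHR; SD, n = 3), a log2 difference of -0.43 with a standard error of 0.98. Lamp5 had 182 ± 140 and 155 ± 32.7 CPM, a log2 difference of -0.23 with a standard error of 0.82. Kcnv1 had 80.5 ± 67.3 and 72.8 ± 36 CPM, a log2 difference of -0.15 with a standard error of 1.1. For Rspo2 the means were 13 ± 10.1 and 11.1 ± 7.51 CPM, a log2 difference of -0.24 with a standard error of 0.99. The signs turned with limma on log2(TPM + 1), which gave 0.29 for Nrgn, 0.51 for Lamp5, 0.90 for Kcnv1 and 0.09 for Rspo2. The edgeR quasi-likelihood fit called 147 of 14471 genes (1.02%) at an adjusted p of 0.05 or less, and 0 of the 4 genes were among them. Of the 4 genes, 0 were below an unadjusted p of 0.05, against 1478 of all genes, and DESeq2 also called 0 of the 4.

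Among the other 4 libraries, all 4 genes were lower in SHR than in BNLx. The mean of SHR replicates 2 and 3 was 66% of the mean of BNLx replicates 1 and 2 for Nrgn, 65.8% for Lamp5, 78% for Kcnv1 and 81.2% for Rspo2. The Rspo2 values of the strains came closest, at 17.2 CPM in SHR replicate 3 against 17.9 CPM in BNLx replicate 2. The log2 differences were -0.60 for Nrgn, -0.61 for Lamp5, -0.36 for Kcnv1 and -0.31 for Rspo2, with standard errors of 0.06, 0.07, 0.09 and 0.15. In this fit, made after the data had been seen, edgeR called 4172 genes (28.8%), with 1991 (13.8%) lower in SHR. The 3 genes Nrgn, Lamp5 and Kcnv1 were among those lower in SHR, and nothing is read from this count because the same levels chose the genes.

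Over all 6 libraries the strains did not overlap for 2526 tested genes (17.5%) and overlapped for all 4 named genes. Which libraries shared a sequencing lane is not given, so lane cannot be told apart from strain or from the libraries that stand apart.

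Kcnv1 and Rspo2 carried several isoforms, whereas Nrgn and Lamp5 carried 1 each. Of the 12 isoforms of Kcnv1, 8 were added by aptardi, and 5 passed the filter of at least 50 counts in 2 of 3 replicates of a strain. Of the 10 isoforms of Rspo2, 4 were added by aptardi, and 2 passed. In all, 9 of the 24 isoforms of the 4 genes passed.

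The counts of Kcnv1 were spread over 7 3′ ends. The reference transcript (STRG.28301.4, 3 exons, 4071 bases) ends at 84015207, and its own end held between 0% and 6.15% of the gene's counts. Its 4 aptardi versions end 2458, 1958, 1658 and 1358 bases before that end. The unnamed transcript STRG.28301.2 has 4 exons and 17549 bases with a last exon of 15375 bases, and ends 12417 bases beyond the reference end.

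STRG.28301.2 held the largest share of Kcnv1 counts, which are not corrected for transcript length, in 5 of the 6 libraries. Its share was 32.4%, 34.5% and 43.1% in BNLx replicates 1, 2 and 3, and 24.8%, 43.3% and 44.5% in SHR replicates 1, 2 and 3. The exception was SHR replicate 1, where the version ending 1958 bases before the reference end held 26%. The strain means were 36.7 ± 5.65% (BNLx) and 37.5 ± 11% (SHR; SD, n = 3), a difference smaller than the spread. A longer transcript yields more counts per molecule, and STRG.28301.2 has 17549 bases against 1613 to 2713 for the aptardi versions of the reference transcript. Its lead in counts is therefore not a lead in number of transcripts.

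Among the shortened versions, SHR replicates 2 and 3 had more of the shortest version and less of the next than BNLx replicates 1 and 2. The version ending 2458 bases before the reference end held 19%, 14.6% and 28.4% in BNLx replicates 1, 2 and 3, and 20.2%, 27.6% and 31.7% in SHR replicates 1, 2 and 3. The version ending 1958 bases before it held 22.7%, 25.4% and 0% in the BNLx libraries and 26%, 12.6% and 13.4% in the SHR libraries. SHR replicate 1 lay nearer to BNLx replicates 1 and 2 than to the other SHR libraries for both versions. The strains overlapped for each of them, with means of 20.7 ± 7.07% against 26.5 ± 5.83% and of 16 ± 13.9% against 17.4 ± 7.52%.

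The version ending 1658 bases before the reference end held 10.6%, 14.2% and 0% in BNLx replicates 1, 2 and 3, and 14.6%, 8.81% and 4.07% in SHR replicates 1, 2 and 3. The version ending 1358 bases before it held 14.6%, 10.7% and 21.9% in the BNLx libraries and 11.9%, 4.84% and 4.95% in the SHR libraries. In SHR replicates 2 and 3 that share was below the BNLx values, while SHR replicate 1 lay between them. An end 14381 bases beyond the reference end held at most 1.94%.

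The Kcnv1 shares of BNLx replicate 3 rest on 36 counts. A share of 0% there allows up to 8.33%, the limit of 3 counts, and the 43.1% of STRG.28301.2 has a Wilson 95% interval from 29.5% to 60.4%. Such intervals cover counting error only and leave out the error of dividing reads between nested isoforms, since the shortened versions lie within the last exons of longer ones. STRG.28301.2 begins at 84024864, upstream of the start of the reference transcript at 84023316.

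Most Rspo2 counts came from isoforms ending at either of a pair of sites 56 bases apart. The aptardi end at 81923994, shared by 4 isoforms, held 72.2%, 46.9% and 83.2% in BNLx replicates 1, 2 and 3, and 54.7%, 69.6% and 44.2% in SHR replicates 1, 2 and 3. The end of the reference transcript STRG.28251.1, at 81924050, held 27.5%, 51.3% and 0% in the BNLx libraries and 43.6%, 29.7% and 34.1% in the SHR libraries. Only STRG.28251.1 has that end, and only STRG.28251.1 starts at 82059247. The split between both sites is thus also a split between starts, and use of the 3′ ends alone cannot be read from it. The first site led in 5 of 6 libraries, all but BNLx replicate 2, and its means of 67.5 ± 18.6% and 56.1 ± 12.8% in BNLx and SHR differed by less than the spread (SD, n = 3). An end at 81924630 held 16.8% in BNLx replicate 3, 21.2% in SHR replicate 3 and 0% elsewhere. The shares of BNLx replicate 3 rest on 18 counts, so that a share of 0% allows up to 16.7% and the 83.2% has a Wilson 95% interval from 60.8% to 94.2%.

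**Figure D3:**
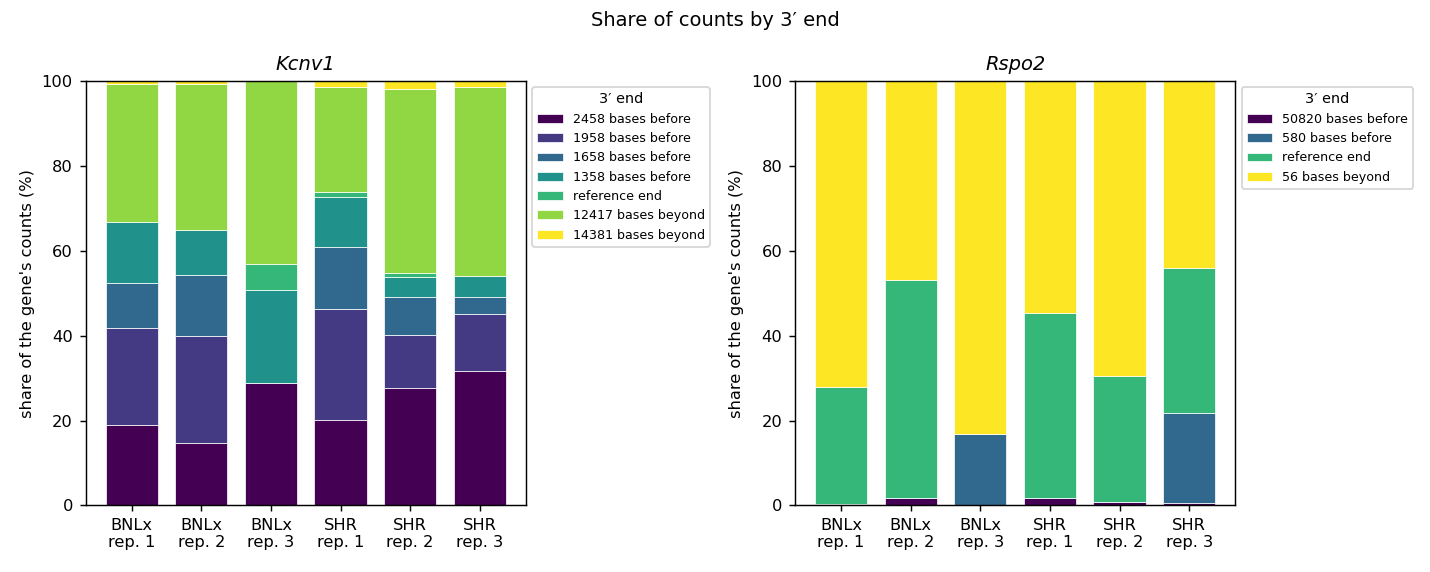
Share of the counts of Kcnv1 (left) and Rspo2 (right) by 3′ end in each library, as stacked bars in percent. Ends are named by their distance from the end of the reference transcript, STRG.28301.4 for Kcnv1 and STRG.28251.1 for Rspo2. The reference end of Rspo2 belongs to a single isoform, which also has its own start. The end 12417 bases beyond the Kcnv1 reference end holds from 24.8% to 44.5%, and bars of BNLx replicate 3 rest on 36 and 18 counts. Shares are of counts and are not corrected for transcript length.

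At the isoform level, edgeR called 324 of 32348 isoforms (1.00%) between strains, with a p cutoff of 0.001 before adjustment, and 0 of the 9 isoforms of these genes were among them. Of the 9, 0 were below an unadjusted p of 0.05, against 2826 of all isoforms, and DESeq2 called 0 of the 9. Without both libraries that stand apart, edgeR called 944 isoforms (2.92%), with 329 (1.02%) lower in SHR, and the single isoform of Nrgn was among the latter. Isoform usage differed at 204 of 7742 loci (2.63%) by the diffSpliceDGE test of edgeR at an adjusted p of 0.05 or less, and at 928 loci (12.0%) without both libraries. Neither Kcnv1 nor Rspo2 was called in either fit, and 0 of both loci were below an unadjusted p of 0.05, against 545 and 1392 of all loci. The usage test took only isoforms past the filter, 5 of 12 for Kcnv1 and 2 of 10 for Rspo2. Both Rspo2 isoforms in it, STRG.28251.1 and STRG.28251.5.1, had 0 counts in BNLx replicate 3. It therefore does not cover all the shares of 3′ ends given above.

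Lists of genes from the families, compartments and pathways of the 4 proteins are given next, with their levels in the libraries that stand apart. Not every listed gene is a known partner of the protein. Over the 13 lists described here, 82 of 231 listed symbols had a locus past the filter. With all 6 libraries edgeR called 0 of the 82 at an adjusted p of 0.05 or less, against 147 (1.02%) of all 14471 genes. Below an unadjusted p of 0.05 were 6 of the 82, against 1478 of all genes. DESeq2 called 2 of the 82, against 543 of all genes. In the calmodulin and protein kinase C list, set beside neurogranin, 6 of 24 symbols were tested. Their median was 66.7% in BNLx replicate 3 and 71.9% in SHR replicate 1, and 1 of 6 was at or below 50% in each. Grin1, the obligatory NMDA receptor subunit, was lowest in the same libraries as Nrgn but by far smaller factors, with 491 CPM in BNLx replicate 3 and 542 CPM in SHR replicate 1 against 690 to 758 CPM in the others.

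Of the lists set beside the 4 proteins, the Kv2 channels and silent Kv subunits (11 of 18 symbols) had the lowest medians. These were 63.5% in BNLx replicate 3 and 56.1% in SHR replicate 1. In this list 5 of 11 genes were at or below 50% in BNLx replicate 3 and 4 of 11 in SHR replicate 1. Kcnc4, which encodes Kv3.4 and whose locus carries 2 symbols, ranged from 374 CPM in SHR replicate 1 to 798 CPM in SHR replicate 2. Kcns1, a further silent subunit named after its values were seen, came closest to Kcnv1, at 31.5, 29.3 and 2.69 CPM in the BNLx libraries and 1.88, 17 and 20.6 CPM in the SHR libraries.

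The LAMP family and lysosomal membrane list (6 of 15 symbols) had medians of 122% in BNLx replicate 3 and 136% in SHR replicate 1, with 0 genes at or below 50%. Ap3d1, a subunit of the AP-3 adaptor that sorts lysosomal membrane proteins, kept between 244 and 315 CPM in all libraries. Laptm4a, a lysosomal membrane protein, kept between 168 and 252 CPM. Laptm4a was also the lowest of the list in BNLx replicate 3, at 81.1%, against 7.69% for Lamp5.

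The R-spondin and Wnt receptor list (9 of 32 symbols) went the other way in BNLx replicate 3, where all 9 genes stood above 100% with a median of 142%. In SHR replicate 1 the median was 107%, and 6 of 9 stood above 100%. Lgr4, a receptor for R-spondins, stood at 44.9, 46.9 and 60.6 CPM in BNLx replicates 1, 2 and 3, and 48.4, 45.4 and 45.3 CPM in SHR replicates 1, 2 and 3. Ctnnb1, which encodes β-catenin, was also highest in BNLx replicate 3, at 438 CPM against 303 to 394 CPM elsewhere. Rspo2 therefore had its lowest level in the library where these 9 genes stood above the other BNLx libraries.

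Among the lists of cell type markers, the cortical and hippocampal list had medians below 100% in both libraries that stand apart, as the 4 genes had, and the other lists did not. Of 27 symbols for cortical and hippocampal excitatory neurons 12 were tested, with a median of 13% in BNLx replicate 3 and 64% in SHR replicate 1, and 11 of 12 and 5 of 12 at or below 50%. The summed level of this list was 1711, 1843 and 225 CPM in BNLx replicates 1, 2 and 3, and 1292, 1931 and 1936 CPM in SHR replicates 1, 2 and 3. Mef2c, a transcription factor of cortical neurons, stood at 574, 654 and 57 CPM in the BNLx libraries and 179, 795 and 718 CPM in the SHR libraries. Arpp21, a phosphoprotein of cortex and striatum whose locus carries 2 symbols, was low in BNLx replicate 3 at 66.2 CPM but highest in SHR replicate 1 at 559 CPM.

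Emx1, a transcription factor of the dorsal forebrain from this list, was chosen after its values were seen. It stood at 27.1, 27 and 0.385 CPM in BNLx replicates 1, 2 and 3, and 3.62, 27.5 and 25.3 CPM in SHR replicates 1, 2 and 3. It was low in the same pair of libraries as Nrgn, Kcnv1 and Rspo2.

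The striatal list (7 of 15 symbols) had a median of 29.8% in BNLx replicate 3 and of 756% in SHR replicate 1, where all 7 genes stood above 100%. Its summed level was 577, 529 and 251 CPM in BNLx replicates 1, 2 and 3, and 1750, 446 and 347 CPM in SHR replicates 1, 2 and 3. Pde1b, a phosphodiesterase stimulated by calmodulin, stood at 522 CPM in SHR replicate 1 and between 149 and 185 CPM in the other libraries. Penk, the enkephalin precursor, whose locus carries 3 symbols, stood at 560 CPM in SHR replicate 1 and between 34.1 and 130 CPM in the others.

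Forebrain interneuron markers (8 of 16 symbols) had medians of 63.1% and 116% in BNLx replicate 3 and SHR replicate 1. Gad1, which makes the transmitter GABA, kept 271 CPM in BNLx replicate 3 against 282 and 283 CPM in the other BNLx libraries and stood at 525 CPM in SHR replicate 1 against 215 and 218 CPM in the other SHR libraries. Cck, the cholecystokinin precursor, was low in both, at 89.4 and 54.7 CPM against 134 to 235 CPM elsewhere. Of the list for thalamus, midbrain and brainstem neurons, only 2 of 22 symbols were tested, and both were above 100% in both libraries. With so few genes, the list cannot show how these regions as a whole stood in either library. Zic1, a transcription factor, stood at 72.1 CPM in BNLx replicate 3 and 64.7 CPM in SHR replicate 1 against 7.06 to 10.5 CPM elsewhere, and Slc5a7, the choline transporter, at 13.5 and 49.6 CPM against 2.02 to 3.65 CPM elsewhere. These 2 genes were highest where Nrgn, Kcnv1 and Rspo2 were lowest.

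Oligodendrocyte genes (6 of 12 symbols) stood at medians of 151% and 173%, with 6 of 6 above 100% in both libraries and a summed level of 5620, 3592 and 7340 CPM in BNLx replicates 1, 2 and 3 and 4689, 3176 and 2094 CPM in SHR replicates 1, 2 and 3. The myelin gene Mobp was highest in BNLx replicate 3, at 1530 CPM. Astrocyte genes (4 of 12 symbols) had medians of 91.8% and 105%, with the glutamate transporter Slc1a2 at 1607 CPM and the calcium-binding protein S100b at 1016 CPM in BNLx replicate 3. Choroid plexus, vessel, blood and microglia genes (6 of 19 symbols) had medians of 93.2% and 170%, with the microglial genes Cx3cr1 and C1qa at 29.7 and 23.5 CPM in BNLx replicate 3. The choroid plexus genes Kcnj13 and Cldn2, named after their values were seen, stood higher in both libraries that stand apart and also in BNLx replicate 1. Kcnj13 stood at 23.1, 3.14 and 22.6 CPM in BNLx replicates 1, 2 and 3, and 23.5, 4.74 and 7.93 CPM in SHR replicates 1, 2 and 3. Cldn2 stood at 15.9, 0.697 and 20.4 CPM in the BNLx libraries and 16.5, 0.284 and 5.64 CPM in the SHR libraries. Cerebellar neuron genes (2 of 16 symbols) had medians of 167% and 118%, with Calb1, a calcium-binding protein, at 75.8 CPM in BNLx replicate 3. The part of these marker lists in the levels of the 4 genes was not tested.

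**Figure D4:**
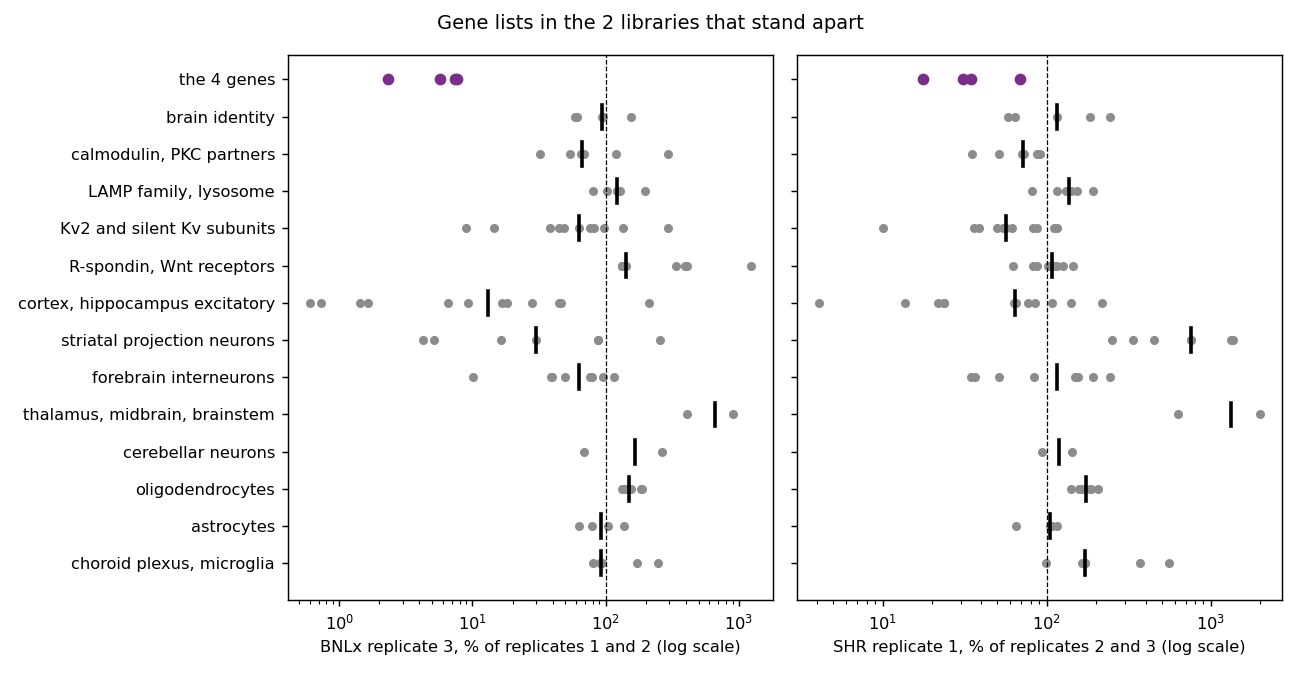
Level of each tested gene of the 13 lists and of the 4 named genes in BNLx replicate 3 (left, percent of the mean of BNLx replicates 1 and 2) and SHR replicate 1 (right, percent of the mean of SHR replicates 2 and 3), on log axes. Grey points are genes, black bars list medians, purple points the 4 named genes and the dashed line 100%. The cortical and hippocampal list has the lowest median on the left (13%) and the striatal list differs most between the panels, with medians of 29.8% and 756%.

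Between strains, the median log2 difference of all tested genes was 0 with all 6 libraries, and that of the lists ran from -0.82 for oligodendrocytes to 1.19 for striatal neurons. It was 0.37 for cortical and hippocampal neurons, 0.72 for thalamus, midbrain and brainstem neurons and 0.26 for astrocytes. The other 8 lists lay between -0.10 and 0.09. Without both libraries that stand apart, edgeR called 2181 of all genes (15.1%) higher in SHR and 1991 (13.8%) lower at an adjusted p of 0.05 or less. Those lower in SHR included 1 of 12 cortical and hippocampal, 3 of 7 striatal, 6 of 8 interneuron, 3 of 6 oligodendrocyte, 3 of 11 Kv2 and silent Kv, 2 of 5 general brain and 1 of 4 astrocyte genes. Those higher in SHR included 3 of 6 genes of the calmodulin and protein kinase C list, 2 of 4 astrocyte and 2 of 9 R-spondin and Wnt genes. They also included 2 of 11 Kv2 and silent Kv, 1 of 6 LAMP and lysosomal and 1 of 8 interneuron genes. In the thalamus, midbrain and brainstem, cerebellar and choroid plexus lists edgeR called 0 of 10 genes, with 1 below an unadjusted p of 0.05. Of all 14471 tested genes, 6302 were below that p in the same fit.

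The genes most like each of the 4 over the 6 libraries were taken from 4123 loci with a single symbol and a mean of at least 200 counts, by Pearson's r of log2 CPM. For Nrgn they were Phf20l1 (r = 0.999), Camk2n1 (r = 0.997) and Arhgap25 (r = 0.996). Camk2n1, an inhibitor of the calmodulin-dependent kinase CaMKII, stood at 1932, 2057 and 310 CPM in BNLx replicates 1, 2 and 3, and 671, 1681 and 1623 CPM in SHR replicates 1, 2 and 3. For Lamp5 they were Hapln1 (r = 0.997), a link protein of the extracellular matrix, Rprm (r = 0.996) and Lrrtm3 (r = 0.996), a synaptic adhesion protein.

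For Kcnv1 the leading genes were Arhgef2 (r = 0.9989), Trim54 (r = 0.9985) and Eml4 (r = 0.998). Trim54 stood at 19.6, 18.9 and 0.616 CPM in the BNLx libraries and 5.76, 16.5 and 15.9 CPM in the SHR libraries. For Rspo2 they were RGD1562136 (r = 0.994), Nell2 (r = 0.993) and Adra1d (r = 0.992), an adrenergic receptor. Adra1d stood at 49.2, 49.6 and 2.31 CPM in the BNLx libraries and 3.25, 37.9 and 37.8 CPM in the SHR libraries. For the mean of the 4 standardized profiles they were Stat6, Pip4k2c and Phf20l1 (r = 0.996, 0.996 and 0.995).

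All profiles share the same 6 libraries, and r compares the shape of profiles, not the size of their changes. In BNLx replicate 3 and SHR replicate 1, Phf20l1 kept 42.4% and 67.5% of the other libraries of the strain. Nrgn kept 5.66% and 30.9%. Arhgef2 kept 45.4% and 78.2%, against 2.32% and 34.5% for Kcnv1, whereas Trim54 kept 3.2% and 35.5%. Between 243 (5.89%) and 283 (6.86%) of the 4123 loci had an r above 0.9 with any single gene of the 4. Without BNLx replicate 3 and SHR replicate 1 (n = 4), the r of the genes named for Nrgn ran from 0.905 to 0.981 and for Lamp5 from 0.935 to 0.991. For Kcnv1 it ran from 0.694 to 0.979 and for Rspo2 from 0.414 to 0.903, so the likeness of Nell2 to Rspo2 rested on the libraries that stand apart.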

How the data were processed

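Reads of 100 bases from unstranded polyA libraries of 6 rat brains (1 ug of RNA each, 1 rat per library) were aligned by the authors with HISAT2 to strain genomes made from rn6 and assembled over both strains with StringTie 1.3.5. 3′ ends were added with aptardi. The deposited expected counts per isoform and per gene were estimated by the authors with RSEM, without normalization. The deposited TPM values were scaled within each library by the same RSEM run of the authors. The labels state for each library that it was run on 3 lanes, of which 2 held 3 samples and 1 held 6.

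Expected counts were rounded and fitted over all loci with edgeR 4.0.16 in R 4.3.3 (TMM, two-sided quasi-likelihood test, strain as the only term, Benjamini-Hochberg adjustment). The filter, applied to genes and isoforms, asked for 50 or more counts in 2 of 3 replicates of a strain. Depth ranged from 11747048 to 41333078 counts per library. P-values set the difference between strains against the spread between rats of a strain, which is estimated with information shared across genes. With all 6 libraries, that spread includes both libraries that stand apart. Gene names come from reference transcripts, and a locus was found by name for 92 of 231 listed symbols. Other listed symbols are not analysed here. 827 loci carry several names. Promoters are from RefSeq (GRCr8), with entries for 2 of the 4 genes.

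The 4 genes and all lists were chosen with earlier results of these data known. The rule for named genes took the 4 genes with their isoforms, the 2 tested genes of highest mean CPM in each list with any called gene, and the 3 loci most like each of the 4. Some genes that the rule names are not reported here. Genes outside the rule are said to be chosen after their values were seen. Alternatives were DESeq2 1.42.0, limma 3.58.1 on log2(TPM + 1) and log2(TPM + 0.1), other size factors and filters, a replicate block, each library left out and, after the data were seen, both libraries that stand apart left out. Tested on simulated data, edgeR recovered 14%, 81% and 92% of genes changed 2-, 4- and 16-fold with 9 false calls among 14471 genes. For 32348 isoforms it recovered 0%, 32% and 80% with 33 false calls, and for usage at 7742 loci 52.5% of 16-fold changes with 63 false calls.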

Additional observations from a re-analysis of the deposited data

How the results depend on the processing

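The log2 differences of the 4 genes between strains (SHR against BNLx) did not keep their sign. They were 0.29 (Nrgn), 0.51 (Lamp5), 0.90 (Kcnv1) and 0.09 (Rspo2) with limma on log2(TPM + 1), and 0.29, 0.52, 1.06 and 0.19 on log2(TPM + 0.1). With each library left out in turn they ran from -0.98 to -0.02 for Nrgn, from -0.76 to 0.14 for Lamp5, from -0.72 to 0.25 for Kcnv1 and from -0.78 to 0.22 for Rspo2. The lowest values came without BNLx replicate 3. Lamp5, Kcnv1 and Rspo2 turned positive without BNLx replicate 1 (0.14, 0.25 and 0.19) or 2 (0.11, 0.24 and 0.04), as did Kcnv1 and Rspo2 without SHR replicate 1 (0.20 and 0.22). The cause was not tested.

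The genes called by edgeR at an adjusted p of 0.05 or less numbered 147, against 543 with DESeq2, 4172 without both libraries that stand apart and 12 to 156 with 1 library left out (14 and 38 without BNLx replicates 1 and 2, 12 and 36 without SHR replicates 2 and 3). Isoforms called numbered 324, against 1166 with DESeq2, 944 without both libraries and 183 to 400 with 1 library left out (at most 208 without each of the same 4 libraries). Loci called for usage numbered 204, against 928 without both libraries and 138 to 345 with 1 library left out (345 without BNLx replicate 3, 341 without SHR replicate 1). Other size factors, filters and limma left the gene count within 1.5 times.

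With the replicate number as a block, edgeR called 0 genes (1192 at an unadjusted p under 0.05), 48 isoforms and 220 usage loci, and the log2 differences were -0.06 (Nrgn), 0.28 (Lamp5), 0.42 (Kcnv1) and -0.16 (Rspo2). Same-numbered libraries had correlations of -0.02, 0.30 and -0.18 of their deviations over 14471 genes. The libraries that stand apart bear different numbers and weigh on these values. Whether same-numbered libraries were handled together therefore cannot be read from them. The isoform shares of BNLx replicate 3 rest on 36 (Kcnv1) and 18 (Rspo2) counts.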
